A study of Mus musculus with 8 samples.

Results

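Replication timing was examined at 8 genes of the formative and primed epiblast: *Fgf5*, *Otx2*, *Pou3f1*, *Cdh2*, *Lef1*, *Sall2*, *Zic2* and *Wnt8a*. The genes were chosen by name as markers of these states, and each was given the timing score at its mm10 midpoint and the profile 1 Mb either side. They are 8 of the 21523 protein-coding genes that had a score in all 4 timing profiles. All 8 were scored, and no filter on low values was applied.

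Mouse embryonic stem cells resemble the naive epiblast before implantation. As that tissue leaves the naive state it passes through a formative state, in which FGF signalling through ERK and the transcription factor Otx2 help to dismantle the naive network, and then a primed state that responds to WNT, Nodal and FGF signals and can enter the germ layers. *Fgf5* is the usual marker of this exit and is silent or low in naive cells. Replication timing is the order in which parts of the genome are copied during S phase: domains rich in active genes tend to be copied early, and silent domains late. Some developmental genes change their timing as cells leave pluripotency.

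The data are Repli-seq profiles of mouse embryonic stem cells. Cells were given the nucleotide analogue BrdU for 2 h and sorted by DNA content into early and late S phase, and the labelled DNA of 40000 cells per fraction was recovered and sequenced. The 8 samples gave 4 profiles: control 1 and control 2, with no treatment named in their labels, and dTAG 1 and dTAG 2, from cells collected 2 days after dTAG. The series is titled as a search for DNA elements that control replication in time and space, and in it dTAG, a small molecule that sends a tagged protein for degradation, was used to deplete YY1, a zinc finger factor that binds promoters and enhancers.

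The labels leave culture and treatment to an earlier publication and name neither the cell line, the number of clones nor the tag. Nothing in them says that the replicates were separate cultures, so each p-value reflects the spread among the deposited samples alone, which may be technical. For dTAG 1, the sample titles and the stated fractions disagree on which sample was early and which late, although the dTAG 1 profiles around all 8 genes correlated positively with those of control 1. RNA and protein were not measured, so neither YY1 loss nor the cell state could be checked, and the sequencing depth behind the scores is unknown, since no counts come with them. Scores are in the units of the deposited table, with high read as early and 0 as the midline. That direction is not stated in the sources used here: 77.5% of all protein-coding genes lay above 0 in all 4 profiles, as did 18 of 18 naive pluripotency genes.

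The 8 genes did not share a timing class. *Wnt8a*, *Pou3f1*, *Sall2*, *Zic2*, *Otx2* and *Lef1* scored above 0 in all 4 profiles. *Cdh2* and *Fgf5* scored below 0 in all 4, which was true of 17.9% of protein-coding genes (3847). The median control score of the 8 genes was 3.15, against 3.24 over all genes. In order of the control mean, *Wnt8a* (4.50) and *Pou3f1* (4.46) overlapped in their control profiles. *Pou3f1*, *Sall2* (3.79), *Zic2* (3.51) and *Otx2* (2.79) followed one another without overlap between the controls of neighbouring genes, although *Pou3f1* exceeded *Sall2* in only 3 of 4 profiles, since dTAG 2 was lower at *Pou3f1*. *Lef1* (1.82) overlapped *Otx2* in the controls but lay below it in 4 of 4 profiles. A gap of 4.40 units separated *Lef1* from *Cdh2* (-2.58), and the controls of *Cdh2* and *Fgf5* (-3.18) overlapped, with *Fgf5* the lower in 4 of 4 profiles.

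**Figure D1:**
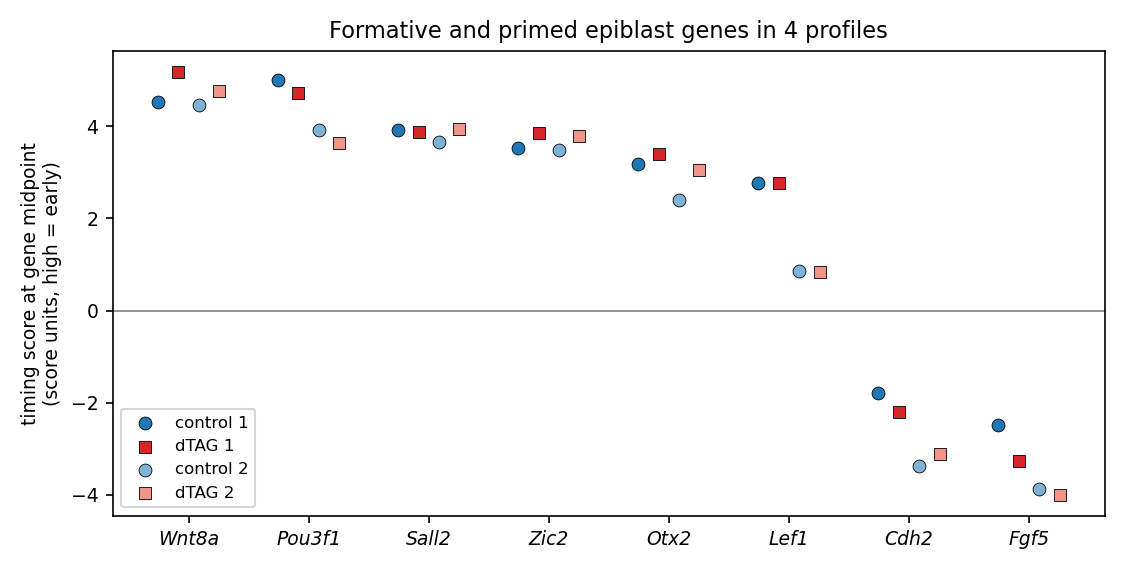
Timing score at the midpoint of each gene (vertical axis, score units, high is early) in control 1, dTAG 1, control 2 and dTAG 2, with genes ordered by control mean. Circles are controls and squares are dTAG profiles: 6 genes lie above 0 and *Cdh2* and *Fgf5* lie below it in all 4, and 7 of 8 genes are lower in replicate 2 than in replicate 1 in both groups.

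No gene was called as changed by dTAG. limma, fitted over all 21523 genes with group as the only term, called 0 of the 8 genes and 0 of all genes (0%), at an adjusted p of 0.9999 for each of the 8; 0 of the 8 and 171 of all genes had an unadjusted p under 0.05. With the replicate block, limma again called 0 of the 8 and 0 of all genes (0%), with adjusted p from 0.661 to 0.992 for the 8, and 0 of the 8 and 1653 of all genes had an unadjusted p under 0.05. An exact permutation of 2 profiles against 2 cannot give a p below 0.333 for any single gene. The mean dTAG minus control difference of the 8 genes ran from -0.44 at *Fgf5* to 0.47 at *Wnt8a*, with a median of 0.05, beside a median of -0.02 over all genes. The size of the difference exceeded the all-gene median of 0.18 at 5 of the 8, while the all-gene median SE of the difference was 0.40.

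Within the replicate numbers, *Otx2*, *Zic2* and *Wnt8a* were higher with dTAG in both, *Fgf5* and *Pou3f1* were lower in both, and *Cdh2*, *Lef1* and *Sall2* went opposite ways. So 5 of 8 kept a sign, beside 55.9% of all genes. Both dTAG profiles lay above both controls at 2 of the 8 genes, *Zic2* and *Wnt8a*, beside 10.0% of all genes, and below both at 0 of the 8, beside 8.42%. The groups overlapped at the other 6. The gap between the replicate numbers was larger in size than the mean dTAG difference at *Fgf5*, *Otx2*, *Pou3f1*, *Cdh2* and *Lef1*, and smaller at *Sall2*, *Zic2* and *Wnt8a*. The median of replicate 2 minus replicate 1 was -0.81 over the 8 genes and -0.46 over all genes, and 72.1% of all genes were lower in replicate 2 in both groups.

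**Figure D2:**
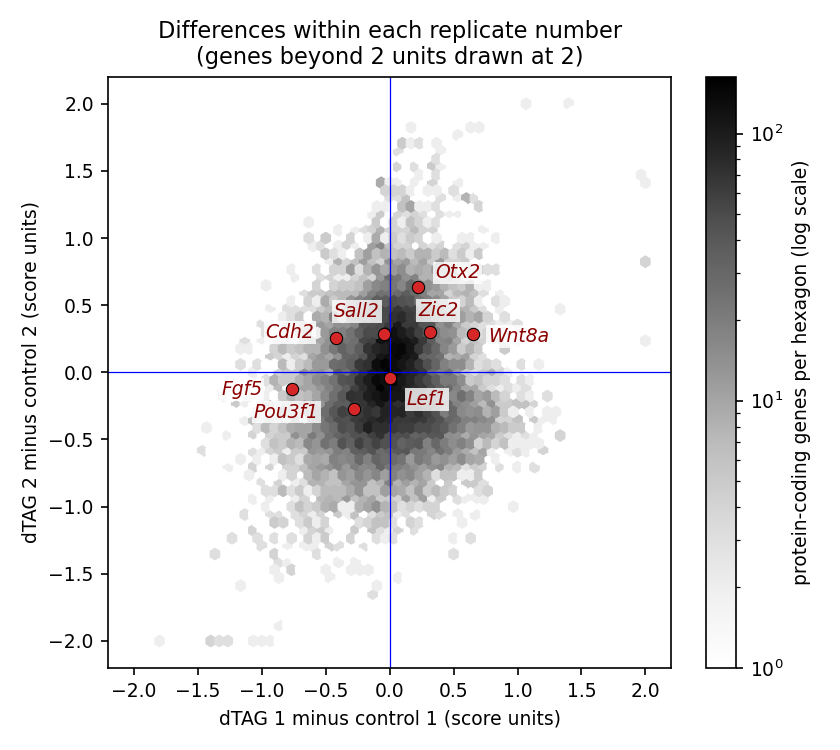
Difference of dTAG 1 minus control 1 (horizontal axis) against dTAG 2 minus control 2 (vertical axis), in score units, with all protein-coding genes as hexagons shaded by their number on a log scale and the 8 genes as red points. *Otx2*, *Zic2* and *Wnt8a* lie above 0 on both axes, *Fgf5* and *Pou3f1* below 0 on both, and all 8 lie within the cloud of other genes.

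*Fgf5* encodes a secreted FGF ligand and spans chr5:98254184-98277033. Its score was -2.49 in control 1, -3.25 in dTAG 1, -3.87 in control 2 and -3.99 in dTAG 2. It was the latest of the 8, and its control mean, -3.18 ± 0.98 (SD, n = 2), lay above that of only 5.71% of genes. dTAG was lower by 0.76 in replicate 1 and by 0.12 in replicate 2, a mean difference of -0.44 (SE 0.58), and the groups overlapped because control 2 lay below dTAG 1. The difference exceeded in size that of 86.7% of genes, but the replicate numbers stood 1.06 units apart.

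In what follows, before and after a gene mean towards lower and higher coordinates, whatever its strand. The surroundings of *Fgf5* were late: of the 40 windows of 50 kb within 1 Mb, 33 were below 0 in all 4 profiles and 0 were above 0 in all. The gene sat just beside a small local rise, with the nearest peak 56 kb before it in control 1, 71 kb before it in dTAG 1, 4 kb after it in control 2 and 86 kb before it in dTAG 2. Before the gene the profiles reached their lowest points 381 to 436 kb away, at -3.88, -4.36, -5.86 and -5.54 in the order above, near *Antxr2*, the neighbour with the lowest mean score (-4.17). After the gene they climbed towards *Bmp3*, a secreted BMP ligand 604 kb away and the neighbour with the highest mean score (-0.37). The highest score within 1 Mb lay 996 kb before the gene in control 1 (0.92), dTAG 1 (0.31) and dTAG 2 (-0.23). In control 2 it lay 644 kb after the gene (0.52).

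Over the 2 flanks together, *Fgf5* had the most negative mean difference of the 8 neighbourhoods, -0.26 in replicate 1 and -0.33 in replicate 2. Neighbourhoods of 2.57% of genes were at least as far lower in both. The mean of -0.30 became -0.06 without control 1, -0.02 without dTAG 2, -0.58 without dTAG 1 and -0.54 without control 2, and -0.19 within 500 kb. In 18 of its 40 windows dTAG was lower in both replicate numbers, and in 0 was it higher in both. The largest such difference was 841 kb before the gene, where the score went from -0.96 to -1.74 in replicate 1 and from -1.96 to -2.55 in replicate 2. Both dTAG profiles lay below both controls in only 1 of the 40 windows, beside 8.53% of all windows. The scores are smoothed along the chromosome, so the 18 windows are not separate measurements. Over all genes, 55.9% had the same sign, up or down, in both replicate numbers at their midpoints, which is a share of genes and not of windows.

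*Otx2* encodes a homeodomain factor that directs the step from the naive to the formative state, and spans chr14:48656781-48667644. Its score was 3.17 in control 1, 3.40 in dTAG 1, 2.41 in control 2 and 3.05 in dTAG 2. dTAG was higher in both replicate numbers, by 0.22 and 0.64, with a mean difference of 0.43 (SE 0.40), and the groups overlapped only because dTAG 2 lay below control 1. *Otx2* lay on a local rise in all 4 profiles, with the nearest peak 8 to 18 kb from its midpoint, and scored above 83.0% to 90.0% of its own flanks. With the replicate block and a trended, robust variance, *Otx2* had the lowest adjusted p of the 8, 0.109 in limma, so it was not called there either. Its unadjusted p in that limma fit was 0.0050, and it was the only 1 of the 8 under 0.05 there. That setting called 559 of all 21523 genes.

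Around *Otx2*, 34 of 40 windows were above 0 in all 4 profiles, and dTAG was higher in both replicate numbers in 25 and lower in both in 4. Neighbouring windows are smoothed together, so these counts are not of separate measurements. Of all genes, 55.9% kept a sign, up or down, at their midpoints, which is a share of genes and not of windows. The largest common difference upwards was 37 kb before the gene, from 3.03 to 3.29 in replicate 1 and from 2.27 to 2.93 in replicate 2. The largest downwards was 763 kb after it, from 1.08 to 0.41 and from -0.45 to -0.93, beside *Slc35f4*, the latest of the 8 other protein-coding genes in the neighbourhood. *Slc35f4* itself scored 1.29 in control 1, 0.60 in dTAG 1, -0.31 in control 2 and -0.80 in dTAG 2. Both windows were picked for the largest difference of one sign in both replicate numbers, so that agreement follows from the choice. Along the descent nearer the gene the replicate numbers disagreed. In the window chr14:49200001-49250000 the difference was -0.35 in replicate 1 and 0.15 in replicate 2. In both picked windows the differences were smaller than the gap between the controls.

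*Pou3f1* (also called Oct6) encodes a POU factor of the formative and primed epiblast and spans chr4:124657646-124660655. Its score was 5.0 in control 1, 4.72 in dTAG 1, 3.92 in control 2 and 3.65 in dTAG 2. The within-replicate differences were nearly equal, -0.28 and -0.27, and their mean of -0.28 (SE 0.57) was small beside a replicate gap of 1.08. All 40 windows around it were above 0 in all 4 profiles, and its 24 other protein-coding genes ranged from *Grik3* (3.25), a kainate receptor subunit gene, to *Rspo1* (4.84), which encodes a secreted amplifier of WNT signalling. The nearest peak moved among profiles: it was 9 kb before the gene in control 1, 146 kb after it in dTAG 1, 34 kb before it in control 2 and 69 kb before it in dTAG 2. The shape of this plateau was the least alike between the dTAG profiles among the 8 (r = 0.65 over 400 positions, against 0.94 between the controls), where smoothed neighbouring positions share reads.

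*Sall2* encodes a spalt-like zinc finger factor and spans chr14:52311177-52328670. Its score was 3.91 in control 1, 3.87 in dTAG 1, 3.66 in control 2 and 3.95 in dTAG 2, the narrowest spread over the 4 profiles of the 8 genes. The differences were -0.04 and 0.29, with a mean of 0.12 (SE 0.32), and *Sall2* was the only one of the 8 not lower in replicate 2 in both groups. It lay on the shoulder of an early domain whose peak was 75 to 100 kb before the gene, near *Chd8*, a chromatin remodeller gene. That peak differed more than *Sall2* did: it stood at 4.80 in control 1, 5.59 in dTAG 1, 4.55 in control 2 and 4.39 in dTAG 2, so that only dTAG 1 was raised.

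Beyond *Sall2* lay runs of windows picked because both dTAG profiles stood on one side of both controls, so their common sign follows from that choice. Over 5 windows from 130 to 380 kb after the gene both dTAG profiles lay above both controls, at 1.0 and 0.97 against 0.87 and 0.70. Over 6 windows from 630 to 930 kb after it both lay below, at 0.06 and -0.20 against 0.17 and 0.23. Of all 40 windows around the gene, 6 lay above both and 6 below both, beside 10.9% and 8.53% of all windows. Within the replicate numbers, dTAG was higher in both in 10 of the 40 and lower in both in 9. With 33 other protein-coding genes this was the most gene-rich of the 8 neighbourhoods, and its latest gene was *Vmn2r88*, a vomeronasal receptor gene 905 kb before *Sall2* (mean score -0.59).

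Promoter sequences from RefSeq (GRCm38.p6) were used for *Fgf5*, *Otx2*, *Lef1* and *Sall2*, with 11 promoters in all; those of *Pou3f1*, *Zic2*, *Cdh2* and *Wnt8a* were not analysed here. They were searched on both strands for the YY1 core AANATGG, which reads CCATNTT on the opposite strand, in a window of 250 bases before to 50 bases after each start. The core was found in 1 of the 11, the upstream promoter of *Sall2*, and in 16.1% of 32851 promoters of the same length (5281). The longer form AANATGGCG, which contains the core and reads CGCCATNTT on the opposite strand, was found in 0 of the 11 and in 2.38% (782). The 3 promoters below are shown because they set the one with a match beside that of the latest of the 8 genes and that of *Otx2*. Each is the 250 bases before the start, 5′ to 3′ on the gene's strand, and capitals mark the core match, which begins 69 bases before the start of *Sall2*.
Sall2 promoter, chr14:52328671-52328920, minus strand: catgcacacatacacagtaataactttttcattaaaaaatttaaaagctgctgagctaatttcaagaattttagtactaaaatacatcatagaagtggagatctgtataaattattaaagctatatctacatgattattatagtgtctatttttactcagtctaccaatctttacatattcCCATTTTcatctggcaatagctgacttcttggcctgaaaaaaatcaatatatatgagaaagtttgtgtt
Fgf5 promoter, chr5:98253934-98254183, plus strand: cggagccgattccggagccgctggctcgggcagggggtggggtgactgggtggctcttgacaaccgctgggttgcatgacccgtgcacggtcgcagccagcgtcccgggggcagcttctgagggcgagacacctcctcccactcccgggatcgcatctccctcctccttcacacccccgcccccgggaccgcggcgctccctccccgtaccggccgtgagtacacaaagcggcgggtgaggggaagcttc
Otx2 promoter, chr14:48667645-48667894, minus strand: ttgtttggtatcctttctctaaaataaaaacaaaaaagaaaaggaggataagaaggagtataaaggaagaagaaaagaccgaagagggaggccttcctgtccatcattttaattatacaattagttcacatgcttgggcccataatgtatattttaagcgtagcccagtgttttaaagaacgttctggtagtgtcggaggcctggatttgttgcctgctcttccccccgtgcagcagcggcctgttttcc
The stretches differ in composition: the G and C content was 28.0% at *Sall2*, 70.8% at *Fgf5* and 42.0% at *Otx2*, with 0, 24 and 6 CpG dinucleotides. The second promoter of *Sall2*, at chr14:52316324-52316573, had 64.4% G and C, 6 CpG dinucleotides and no match. The other 3 promoters of *Otx2* had 48.4% to 53.6% G and C and no match. A match describes these letters, not binding, and YY1 binding was not measured.

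*Zic2* encodes a zinc finger factor that binds enhancers in the primed epiblast and lies at chr14:122475384-122480328. Its score was 3.53 in control 1, 3.85 in dTAG 1, 3.50 in control 2 and 3.79 in dTAG 2. Replicate 2 minus replicate 1 was only -0.03 in the controls and -0.05 with dTAG, and both dTAG profiles lay above both controls, by 0.32 and 0.30 within the replicate numbers. The mean difference was 0.31 (SE 0.31), where the SE is limma's and takes most of its size from other genes. *Zic5*, its neighbour and relative, scored 3.63, 4.02, 3.59 and 3.93 in the same order. Because the scores are smoothed along the chromosome, the pair is not a set of separate measurements.

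*Zic2* lay on the slope of an early plateau that gave way to late replication within 1 Mb. Over 4 windows from 78 kb before to 122 kb after its midpoint both dTAG profiles exceeded both controls, with mean differences of 0.31 and 0.19. Over 11 windows in a row, 550 kb from 472 to 1022 kb after the gene, both lay below both controls instead, at -1.29 and -1.48 against -1.04 and -0.82. This was the longest such run near the 8 genes, and it reached *Nalcn*, a sodium leak channel gene 974 kb away, at -2.0 in control 1, -2.23 in dTAG 1, -1.59 in control 2 and -2.15 in dTAG 2. Both runs were picked because both dTAG profiles stood on one side of both controls, so their common sign follows from that choice. Of the 40 windows around *Zic2*, 6 lay above both controls and 11 below both, beside 10.9% and 8.53% of all windows. Windows below both controls made up 7.5% of those near the 8 genes. With smoothed scores, windows in a row are not separate measurements. Averaged over the whole neighbourhood the opposite stretches nearly cancelled, at -0.03 and -0.09.

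**Figure D3:**
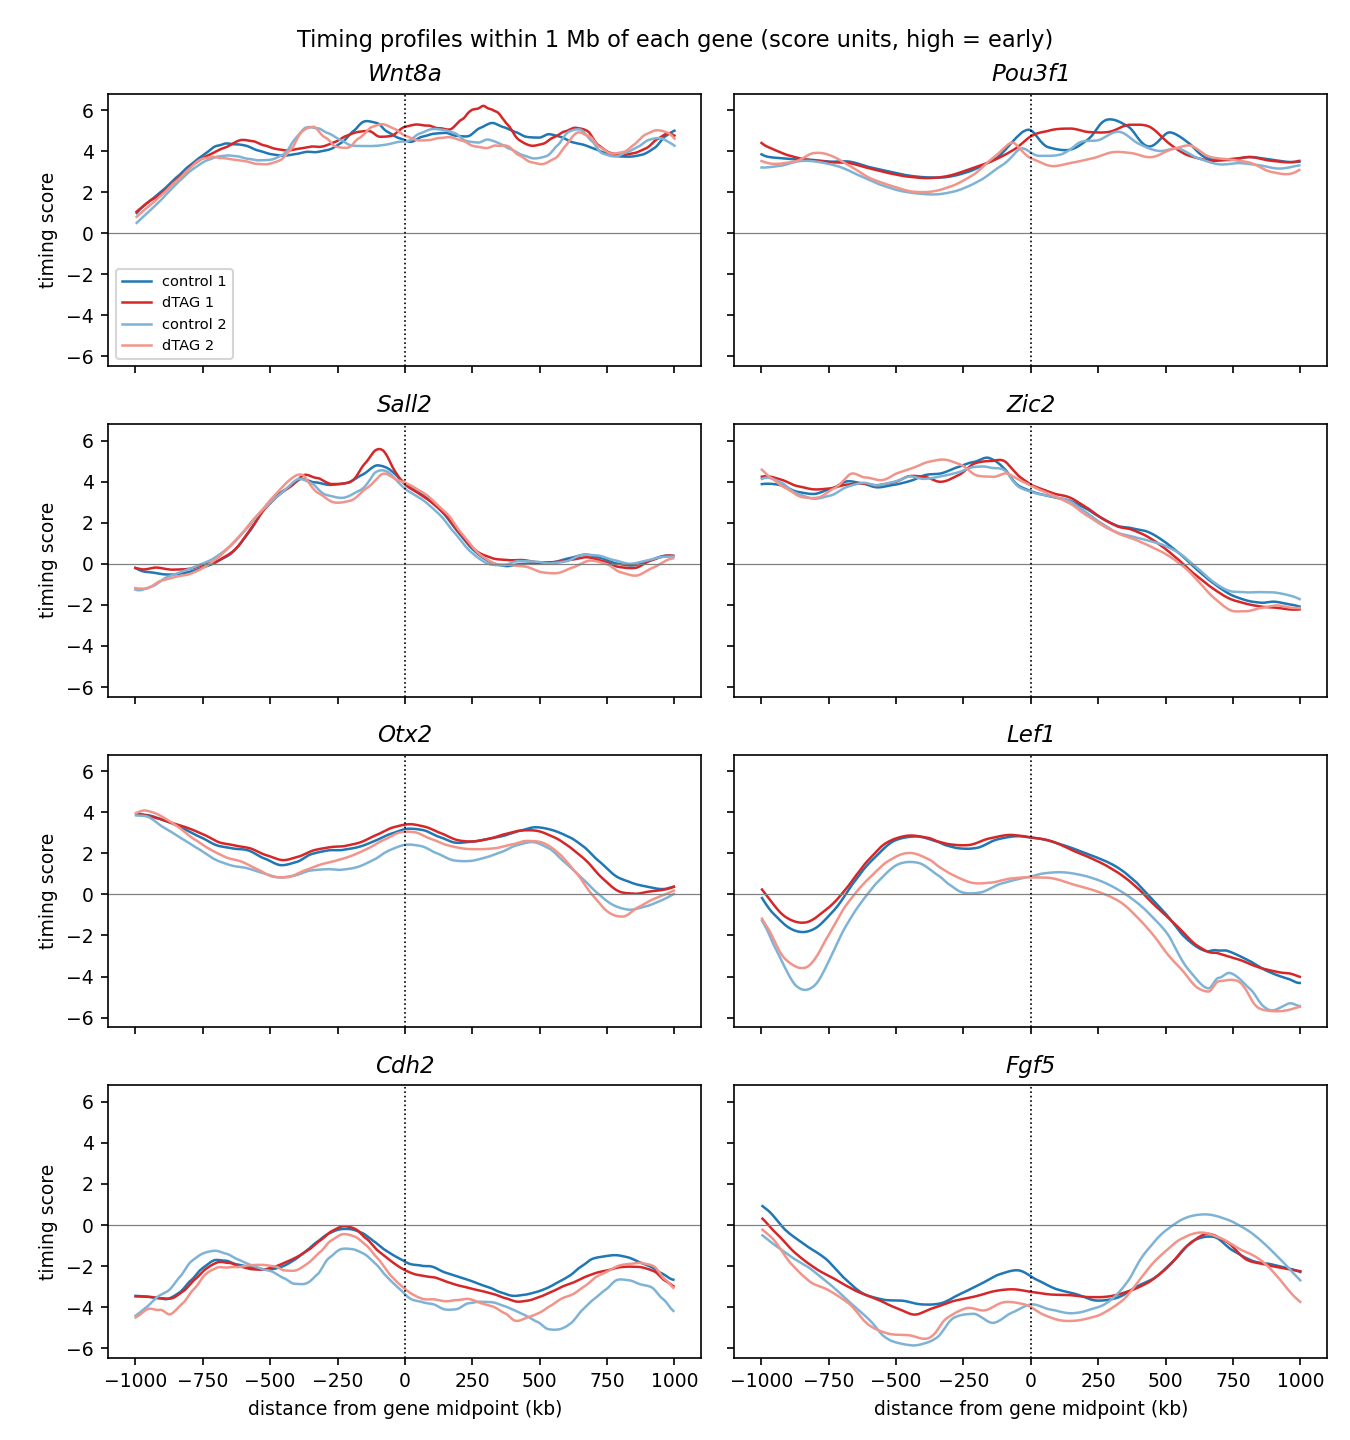
Timing score (vertical axis, score units, high is early) against distance from the gene midpoint (horizontal axis, kb) for the 8 genes, ordered by control mean, with 1 line for each of the 4 profiles and a dotted line at the midpoint. *Wnt8a* and *Pou3f1* lie on early plateaus, *Zic2* and *Lef1* beside descents into late domains, and *Cdh2* and *Fgf5* in late surroundings. *Sall2* lies beside a descent that levels off near the midline.

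*Lef1* encodes an HMG-box factor that carries beta-catenin to WNT target genes, and spans chr3:131110297-131224357. Its score was 2.78 in control 1, 2.78 in dTAG 1, 0.87 in control 2 and 0.83 in dTAG 2. The dTAG difference was 0.00 in replicate 1 and -0.04 in replicate 2, with a mean of -0.02 and an SE of 0.91 that came from the replicate gap. That gap, -1.93, was larger in size than at 99.5% of genes. dTAG and control were thus closest at the gene whose replicate numbers were farthest apart.

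*Lef1* lay inside an early domain with late domains on both sides. The score fell within 1 Mb to lows of -4.31, -4.01, -5.65 and -5.69 in control 1, dTAG 1, control 2 and dTAG 2, in the direction of *Dkk2*, a secreted WNT modulator gene 965 kb away and the latest neighbour (mean -4.73). On the other side, 792 kb before the gene, lay the largest upward difference common to both replicate numbers, at -1.05 against -1.54 and at -2.89 against -4.19. The largest common one downwards was 358 kb after the gene, at 0.70 against 0.94 and at -0.67 against -0.08. Both windows were picked for a common sign. Of the 40 windows, dTAG was higher in both replicate numbers in 20 and lower in both in 13. Both dTAG profiles were above both controls in 0 of the 40 windows around *Lef1* and below both in 0, beside 10.9% and 8.53% of all windows.

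*Wnt8a* encodes a secreted WNT ligand of the primed epiblast and primitive streak, and lies at chr18:34542327-34548061. Its score was 4.53 in control 1, 5.18 in dTAG 1, 4.47 in control 2 and 4.76 in dTAG 2. Its control mean, 4.50 ± 0.04 (SD, n = 2), was the highest of the 8 and above that of 89.2% of genes, although *Pou3f1* scored higher in control 1 and overlapped it in the controls. Both dTAG profiles lay above both controls, by 0.65 and 0.29 within the replicate numbers, and the mean difference of 0.47 (SE 0.33) exceeded in size that of 88.5% of genes.

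All 40 windows around *Wnt8a* were above 0 in all 4 profiles. Near the gene, in the window of 50 kb that ends just after the midpoint the dTAG profiles stood at 5.03 and 4.91 against 4.62 and 4.45, while over the whole neighbourhood the mean differences were 0.17 and 0.01. A second run above both controls lay 655 to 805 kb after the gene, over 3 windows, with differences of 0.30 and 0.12. Both stretches were picked because both dTAG profiles lay above both controls. Of the 40 windows, 4 lay above both controls and 0 below both, beside 10.9% and 8.53% of all windows. Nearest peaks shifted among the profiles, lying 140 kb before the gene in control 1, 45 kb after it in dTAG 1, 110 kb after it in control 2 and 85 kb before it in dTAG 2. *Egr1*, an immediate early gene induced by ERK and the earliest of the 23 other genes here, 318 kb away, scored 5.37, 6.04, 4.53 and 4.21 in the same order, with differences of opposite sign.

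*Cdh2* encodes N-cadherin, the adhesion molecule that replaces E-cadherin as epiblast cells change shape, and spans chr18:16588877-16809246. It is the longest of the 8 genes, at 220.37 kb. Its score was -1.79 in control 1, -2.20 in dTAG 1, -3.38 in control 2 and -3.12 in dTAG 2. The differences had opposite signs, -0.42 and 0.25, with a mean of -0.08 (SE 0.65), and the groups overlapped.

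*Cdh2* was the only protein-coding gene with its midpoint in these 2 Mb, and all 40 windows around it were below 0 in all 4 profiles. A peak 219 to 224 kb before its midpoint was the nearest to the midline, at -0.19 in control 1, -0.06 in dTAG 1, -1.15 in control 2 and -0.44 in dTAG 2. In 6 windows from 899 to 599 kb before the gene both dTAG profiles lay below both controls, at -2.52 and -2.88 against -2.42 and -1.87, and replicate 2 made up nearly all of that difference. The run was picked because it lay below both. Of the 40 windows, 6 lay below both controls and 1 above both, beside 8.53% and 10.9% of all windows.

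Across the neighbourhoods of all 8 genes, no window of 50 kb stood 0.5 units clear of the controls. Both dTAG profiles lay at least 0.5 units above both controls in 0 of 320 windows, beside 0.531% of all 51425 windows, and at least 0.5 below in 0, beside 1.09%. Without a minimum they lay above both in 21 (6.56%, beside 10.9% of all windows) and below both in 24 (7.5%, beside 8.53%). The 21 were spread over *Sall2* and *Zic2* with 6 each, *Wnt8a* with 4, *Otx2* and *Pou3f1* with 2 each and *Cdh2* with 1. limma called 0 of the 320 windows and 0 of all windows (0%), with 0 of the 320 and 500 of all at an unadjusted p under 0.05. With the replicate block limma also called 0, and 13 of the 320 windows (4.06%) had an unadjusted p under 0.05, beside 12.1% of all windows.

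The shape of the profiles around each gene was close between dTAG and control of the same replicate number. Over the 400 positions around *Zic2* the correlation was 0.996 in replicate 1 and 0.994 in replicate 2, and around *Sall2* 0.996 and 0.989. It was lowest around *Pou3f1* (0.875 and 0.844), where the score varied least, and around *Cdh2* in replicate 2 (0.791). These are descriptions of smoothed profiles, in which neighbouring positions are not independent.

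Other genes had nearly the same 4 scores as most of the 8, by the Euclidean distance over the 4 profiles among genes on other chromosomes or more than 5 Mb away. *Sall2* had the closest match, *Eapp* (0.0491), and 1302 genes within 0.5 units. *Zic2* had 1135 genes that near and *Gm19428* closest (0.104), *Pou3f1* had 617 and *Hapln4* (0.110), and *Otx2* had 294 and *Prdm4* (0.103). The pattern was rarer at *Wnt8a* (53 genes, *Ptpn1* at 0.226), *Cdh2* (39, *Csn2* at 0.166) and *Fgf5* (19, *Tmem182* at 0.162). *Lef1* had only 2, of which *Pja1* was closest (0.435).

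Of 21 relatives of the 8 genes, 16 were above 0 and 4 below 0 in all 4 profiles, beside 77.5% and 17.9% of all genes. Some lay in another timing class than the gene they resemble. Beside early *Pou3f1*, the paralogues were late or near the midline: the control mean was -0.20 for *Pou3f2*, -1.06 for *Pou3f3* and -3.64 for *Pou3f4*. Beside early *Zic2*, *Zic5* scored 3.61, while the adjacent pair *Zic1* and *Zic4* scored -3.05 and -3.11. Beside late *Cdh2*, the E-cadherin gene *Cdh1* scored 4.74, and beside late *Fgf5*, *Fgf4*, the FGF ligand of naive cells, scored 4.31. *Otx1* (1.92) was later than *Otx2*, and *Tcf7* (4.29), *Tcf7l1* (4.78) and *Tcf7l2* (2.31) earlier than *Lef1*. *Sall4* (3.67) stood near *Sall2*, with *Sall1* (3.04) and *Sall3* (1.91) later.

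The widest dTAG difference among these relatives was at *Pou3f2*, a neural POU factor gene. It scored 0.41 in control 1, 1.21 in dTAG 1, -0.80 in control 2 and -0.02 in dTAG 2, so dTAG was higher by 0.80 and 0.78. *Pou3f3* went the other way, by -0.45 and -0.60, and *Pou3f1* by -0.28 and -0.27. limma called 0 of the 21 relatives.

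The pathway genes of the 8, in lists that share some genes, went in mixed directions with dTAG. Over all genes, 77.5% were above 0 and 17.9% below 0 in all 4 profiles, and 55.9% had the same sign in both replicate numbers. Of 27 other formative and primed genes, 22 were above 0 and 3 below 0 in all 4 profiles, 4 were higher with dTAG in both replicate numbers, 9 lower and 14 of opposite sign. The lowest mean difference was at *Sox11* (-0.69), a neural SOX factor gene, and the highest at *Car4* (0.43). *Sox11* scored -0.52 in control 1, -1.41 in dTAG 1, -1.0 in control 2 and -1.48 in dTAG 2, with both dTAG profiles below both controls. In its list 1 gene lay below both controls and 2 above both, beside 8.42% and 10.0% of all genes. Of 22 FGF and ERK genes, 4 were higher in both, 3 lower in both and 15 opposite, with *Spry1*, a feedback inhibitor of FGF signalling, lowest in difference (-0.32) and *Fgf15* highest (0.44). Of 26 canonical WNT genes, 4 were higher in both, 4 lower in both and 18 opposite, with *Lrp5*, a WNT co-receptor, lowest in difference (-0.39) and *Wnt8b* highest (0.32). Of 18 naive pluripotency genes, 5 were higher in both, 3 lower in both and 10 opposite, with *Fgf4* highest in difference (0.29). The lowest was *Nr0b1*, which encodes the nuclear receptor Dax1, at 0.99 in control 1, 0.10 in dTAG 1, 0.60 in control 2 and 0.39 in dTAG 2 (-0.55), with both dTAG profiles below both controls. Among the naive genes 1 lay below both controls and 0 above both. limma called 0 genes of each list, without and with the replicate block, and each median difference lay between -0.02 and 0.08, beside -0.02 over all genes.

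**Figure D4:**
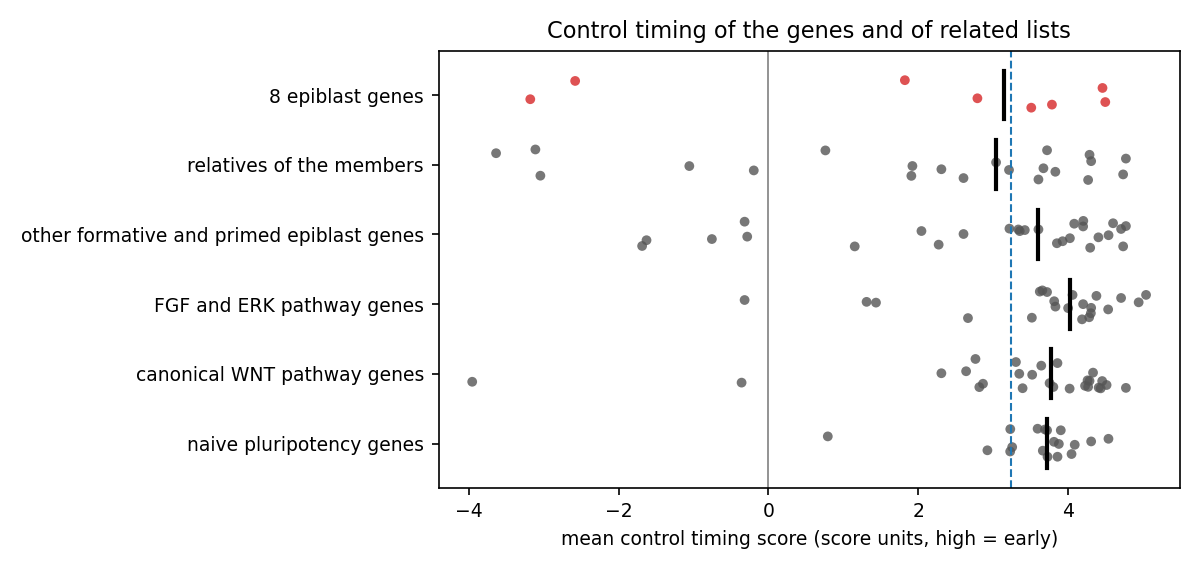
Mean control timing score (horizontal axis, score units, high is early) of each gene in the 8 epiblast genes and in 5 lists, with 1 point per gene, a black bar at the list's median and a dashed line at the median of all genes (3.24). The medians lie between 3.04 for the relatives and 4.03 for the FGF and ERK genes, and *Fgf5* and *Cdh2* are among the few points below -2.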

How the data were processed

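Repli-seq was done on 8 samples that form 4 timing profiles, and groups came from the sample descriptions; replicate 1 carries no number in the sample labels. The authors deposited 1 signed timing score per 5 kb position and profile, smoothed with Loess and quantile normalized per the file name, on mm10. Bowtie2, SAMtools and bedtools are named in the submitters' processing notes; the sources used here give neither versions nor the formula and log base of the score. Of 526745 positions, 514245 had a score in all profiles. Sorted scores agreed to within 0.000114 between control and dTAG of a replicate number and were mirrored between the numbers (means of 0.199 and -0.199), so values are also given within each number.

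Each gene (RefSeq, GRCm38.p6) took the score of the position at its midpoint, and windows of 50 kb the mean of their positions, with at least 0.5 of them scored. Genes and windows were fitted with limma 3.58.1 under R 4.3.3 (lmFit, then eBayes, with group only, 2-sided, Benjamini-Hochberg over all, threshold 0.05); the fit was tested on simulated data. Alternatives were the replicate number as a block, a trended and robust variance, all profiles on one distribution, a mean over 50 kb, the transcription start, other window settings and leaving out each profile. The genes and lists were chosen with earlier results of these data known. By the naming rule all 8 genes are named, with the gene most alike; it allowed the neighbours of highest and lowest mean score, relatives, and the highest and lowest difference of each list, of which not all are named. Tables were handled in Python 3.11.15.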

Additional observations from a re-analysis of the deposited data

How the results depend on the processing

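Member genes called numbered 0 in every fit that was run, including those with the replicate block, and windows called near the genes likewise. Over all features the replicate block with a trended, robust variance called 559 genes and 1462 of 51425 windows, fits without dTAG 1 or dTAG 2 called 4 and 5 genes and 3 and 4 windows, and the other fits called 0. Of 52 midpoint differences under alternatives that kept all profiles, 51 kept their direction; *Lef1* turned to 0.068 at its transcription start. With 1 profile left out, the replicate numbers were no longer balanced: the median difference of all genes became 0.19 (control 1 left out), -0.28 (dTAG 1), -0.22 (control 2) and 0.20 (dTAG 2). There 8 of 32 midpoint differences turned sign: *Fgf5* (-1.13 to 0.25), *Pou3f1* (-0.82 to 0.26), *Cdh2* (-0.88 to 0.71) and *Lef1* (-0.99 to 0.96), all without control 1 and the latter 3 also without dTAG 2, and *Sall2* (-0.0024 to 0.25) without control 2. *Zic2* (0.28 to 0.33), *Wnt8a* (0.26 to 0.68) and *Otx2* (0.05 to 0.81) kept theirs. Genes with both dTAG profiles above both controls numbered 3 on one distribution, where *Otx2* joined (2500 of all 21523 genes), and 2 to 5 with 1 profile left out: 5 for control 1 (8020 of all genes), 3 for dTAG 1 (3703), 2 for control 2 (3261) and 4 for dTAG 2 (9920). Windows at least 0.5 clear of both controls, 0 with all profiles, numbered 7 at a minimum of 0.25 (2780 of all windows), 45 with no minimum (9974) and 10 to 61 with 1 profile left out: 61 for control 1 (6811 of all windows), 31 for dTAG 1 (7374), 20 for control 2 (3720) and 10 for dTAG 2 (3651). The mean neighbourhood differences moved beyond the spread between replicates in 27 of 48 cases. One distribution with the replicate block, and the alternatives to the count of genes above both controls, were chosen after seeing the data. Depth is unknown, and 2 profiles a group limit what could be called.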
